A study of Bos grunniens and Bos grunniens x Bos taurus with 12 samples.

Results

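The matrix proteases and their inhibitors were followed in testis by ribosome profiling (Ribo-seq), which sequences the ribosome footprints (RFs), the stretches of mRNA shielded by ribosomes. They were taken as all genes with a symbol that begins with MMP and a number, begins with ADAMTS, or is TIMP and 1 digit, which gave 46 of the 20965 genes in the deposited tables. They comprise 20 MMP proteases, 17 ADAMTS proteases, 5 ADAMTSL proteins and 4 TIMP inhibitors. The ADAMTSL proteins carry the same prefix but lack the protease domain, so they are described apart.

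There were 12 libraries of whole testis, 1 per animal, in 4 groups of 3. Yak were 6 months old (labelled juvenile stage), 18 months old (puberty) or 4 years old (sexual maturity), and cattle–yak, the sterile male hybrids of a Jersey bull and a Gannan yak dam, were 4 years old. No group received a treatment. The labels give castration as the way the testes were obtained, whereas the study's methods give euthanasia for yak and castration for cattle–yak, so by the methods the way of collection and the hybrid state cannot be told apart. RFs of the hybrid, which holds a cattle and a yak copy of each autosomal gene, were aligned to the yak genome like those of yak, and the effect of this on a gene's count was not tested.

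MMPs are zinc proteases that are made as inactive precursors and cut collagens, other matrix proteins and many secreted or surface proteins. ADAMTS proteases are secreted and bind the matrix, where different members trim proteoglycans, mature procollagens or cleave single plasma and cartilage proteins. TIMPs occupy the active site of MMPs, and *TIMP3* also inhibits ADAM and ADAMTS proteases, while *TIMP2* in complex with the membrane protease *MMP14* takes part in activating the precursor of *MMP2*. In the testis these proteins are known for the remodelling of the basement membrane and of the junctions of the blood–testis barrier as germ cells move towards the lumen. Protein, promoter or mRNA sequences of these genes are not given here.

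Total counts ranged from 16304058 to 52616039 per library, with medians of 30716077 in yak of 6 months, 23803000 in yak of 18 months, 17796018 in yak of 4 years and 38616961 in cattle–yak. Markers of the late germ cells, the spermatids, were plentiful in yak of 4 years, where 6 genes (*TNP1*, *ACRV1*, *SPACA1*, *GAPDHS*, *ODF1* and *ODF2*) summed to 10240 to 13180 FPKM, fragments scaled to transcript length and to library depth. Their sum was 9.77 to 17.26 FPKM in yak of 6 months and 78.92 to 164.2 FPKM in cattle–yak. The 3 yak of 18 months stood apart from each other, with sums of 14.69, 7626 and 36.01 FPKM in replicates 1, 2 and 3, and each result that rests on them is given with this in view. Markers of Sertoli cells were found in every library. In whole tissue, fewer cells of a type and less RNA or less translation per cell cannot be told apart.

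Of the inhibitors, *TIMP2* and *TIMP3* stood above every protease in all libraries, *TIMP2* by far. *TIMP1* had a lower mean than the protease *MMP15* in every group but yak of 6 months, and *TIMP4* was low throughout. In yak of 6 months *TIMP2* reached 62048.66, 52661.61 and 45528.80 FPKM and ranked 2, 2 and 3 among all genes by count. It read 39588.94, 15437.64 and 16199.99 FPKM in yak of 18 months, 5839.86, 8149.87 and 7089.01 FPKM in yak of 4 years, and 11112.98, 13190.99 and 12293.48 FPKM in cattle–yak. The groups therefore followed the order 6 months, 18 months, cattle–yak, 4 years, and no neighbours in that order overlapped. *TIMP2* took 3.58% to 4.81% of all counts at 6 months, 1.203% to 3.08% at 18 months, 0.455% to 0.641% at 4 years and 0.899% to 1.05% in cattle–yak. By count it ranked first among all genes in cattle–yak replicates 2 and 3 and second in replicate 1, against ranks of 10, 5 and 6 in yak of 4 years.

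*TIMP3*, which is held in the matrix, came next with 1835.97, 1490.91 and 1152.11 FPKM at 6 months and 1651.63, 786.92 and 1008.90 FPKM at 18 months. It read 270.77, 316.97 and 243.50 FPKM in yak of 4 years against 471.67, 528.51 and 563.67 FPKM in cattle–yak, so the hybrids lay above all yak of their age and below both younger groups. *TIMP1*, a soluble inhibitor, read 265.45, 214.21 and 133.53 FPKM at 6 months and 167.82, 83.11 and 80.95 FPKM at 18 months. It read 51.07, 47.21 and 34.66 FPKM in yak of 4 years and 66.99, 65.43 and 61.22 FPKM in cattle–yak, again without overlap between the adult groups.

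*TIMP4*, the inhibitor with the narrowest known tissue range, ran the other way at a far lower level. It read 1.16, 0.76 and 0.69 FPKM at 6 months, 1.01, 1.80 and 0.75 FPKM at 18 months, 2.79, 3.98 and 3.14 FPKM at 4 years, and 1.11, 1.03 and 1.18 FPKM in cattle–yak. Yak of 4 years were above every other library, and the hybrids lay within the range of the younger yak.

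**Figure D1:**
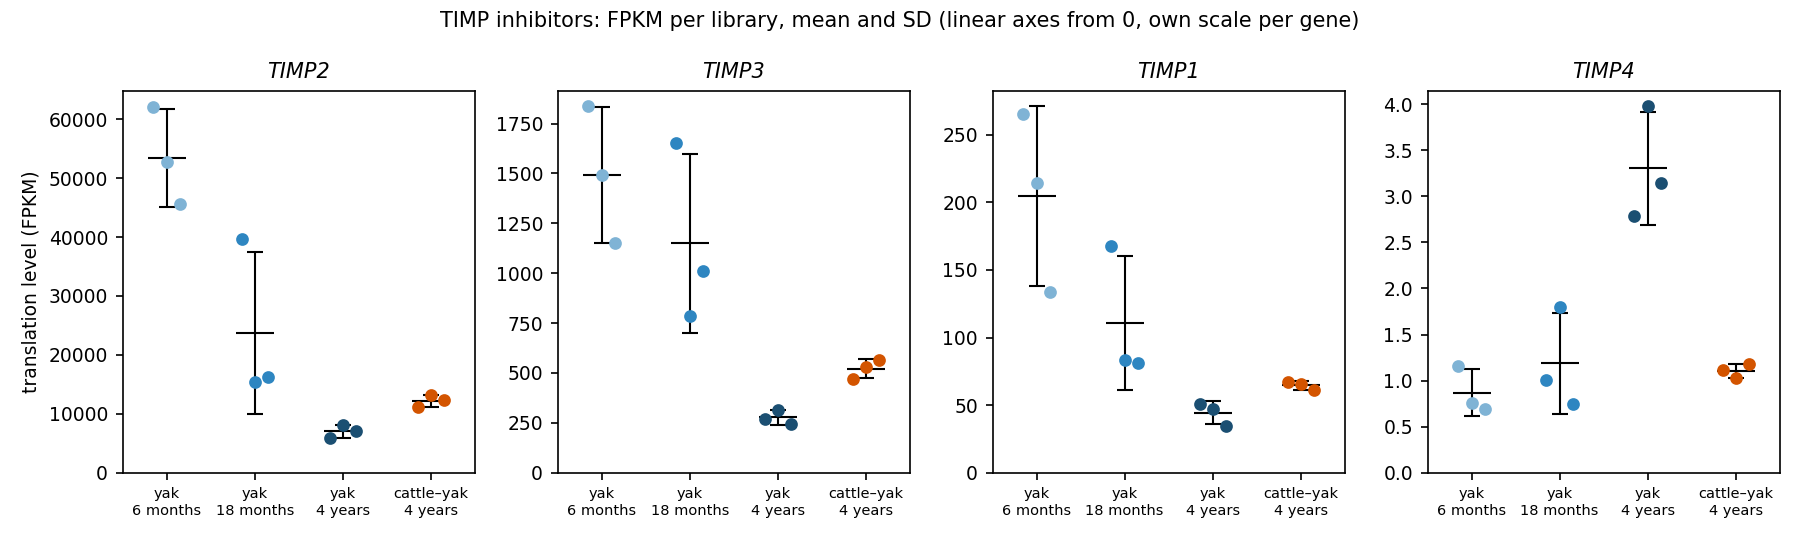
Translation level (FPKM, linear axis from 0, own scale per gene) of the 4 TIMP inhibitors in each library of the 4 groups, with 3 points per group and bars for mean and SD. *TIMP2*, *TIMP3* and *TIMP1* are highest in yak of 6 months and lowest in yak of 4 years with cattle–yak between them, while *TIMP4* is highest in yak of 4 years at 2.79 to 3.98 FPKM.

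Summed over the family, TIMP FPKM exceeded MMP FPKM 142 to 164 times at 6 months, 54.0 to 139 times at 18 months, 41.3 to 52.8 times at 4 years and 48.1 to 58.7 times in cattle–yak. These ratios rest on *TIMP2*, which made up 93.7% to 97.3% of the TIMP sum in every library. Without it the ratio was 3.91 to 5.38 at 6 months, 3.41 to 6.11 at 18 months, 1.86 to 2.17 at 4 years and 2.08 to 2.72 in cattle–yak, so the adult groups overlapped. The ratio of FPKM sums counts footprints and says nothing of the amounts of secreted protein.

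FPKM divides by a length that the authors' software estimated in each library. The count of *TIMP2* per FPKM, relative to the median gene of its library, was 0.555 ± 0.00676 in yak of 4 years and 0.571 ± 0.00538 in cattle–yak (mean ± SD, n = 3), with p = 0.1 in an exact two-sided permutation test, the smallest that 3 against 3 allows. In RefSeq's yak assembly Bosgru_T2T1.0 *TIMP1*, *TIMP3* and *TIMP4* each lie within or across a synapsin gene (*SYN1*, *SYN3* and *SYN2*). Since the strand used in counting is not given in the sources used here, reads of such pairs may be shared. *SYN3* read 2.69 to 16.75 FPKM, far under *TIMP3*, and *SYN1* read 0.39 to 1.75 FPKM. *SYN2* was close in level to *TIMP4* in yak, with 0.2, 1.06 and 0.47 FPKM at 6 months and 1.66 to 3.78 FPKM at 18 months. At 4 years *SYN2* read 3.72 to 5.47 FPKM in yak and 9.77 to 12.44 FPKM in cattle–yak. In yak both genes were thus higher at 4 years than at 6 months. In cattle–yak *SYN2* was higher and *TIMP4* lower than in yak of 4 years. Whether this pair shares reads was not tested. *TIMP2* overlaps *CEP295NL*, a protein-coding gene not analysed here. The tables hold no read positions, so whether the footprints behind the ratios and ranks of *TIMP2* spread over its open reading frame was not examined.

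The MMPs changed in make-up between the groups. *MMP2*, the gelatinase that degrades basement membrane collagen, led the family at 6 months with 152.11, 129.46 and 149.33 FPKM, which was 37.9% to 45.4% of the MMP sum. It read 87.32, 46.95 and 80.05 FPKM at 18 months, 15.86, 22.87 and 18.32 FPKM at 4 years and 24.98, 42.09 and 23.39 FPKM in cattle–yak. *MMP15*, a transmembrane MMP, led every library of the other 3 groups. It read 40.05, 43.13 and 28.59 FPKM at 6 months, 119.51, 100.55 and 163.80 FPKM at 18 months, 65.14, 94.58 and 52.17 FPKM at 4 years and 106.61, 153.35 and 136.22 FPKM in cattle–yak. All hybrid libraries were above all yak of 4 years for both genes. *MMP15* made up 37.4% to 47.8% of the MMP sum in yak of 4 years and 53.5% to 57.8% in cattle–yak.

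Other MMPs with a high level in the young testis were *MMP23B*, *MMP14*, *MMP16* and *MMP19*. *MMP23B*, a small membrane-anchored MMP, read 76.05 to 119.78 FPKM at 6 months, 25.30 to 52.11 FPKM at 18 months, 10.86 to 12.62 FPKM at 4 years and 19.26 to 24.46 FPKM in cattle–yak. *MMP14*, the membrane-bound activator of *MMP2*, read 33.10 to 37.71 FPKM at 6 months, 11.63 to 18.44 FPKM at 18 months, 5.92 to 7.73 FPKM at 4 years and 8.5 to 13.33 FPKM in cattle–yak. Adult groups did not overlap for either gene, and the hybrids were nearer to yak of 4 years than to yak of 6 months. In Bosgru_T2T1.0 *MMP14* overlaps *SLC7A7*, which read 3.66 to 4.12 FPKM in yak of 4 years and 2.48 to 2.73 FPKM in cattle–yak. Whether this pair shares reads was not tested. *MMP16*, a further transmembrane MMP, read 22.01 to 34.11 FPKM at 6 months and at most 2.92 FPKM in any adult library. *MMP19* read 6.19 to 7.68 FPKM at 6 months and 1.24 to 2.04 FPKM in the adults, whose groups overlapped for both genes.

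A different set of MMPs was low at 6 months. *MMP11*, which like *MMP28* is activated inside the cell by furin-type convertases, read 0.95, 0.83 and 0.95 FPKM at 6 months, 3.47, 7.51 and 11.20 FPKM at 18 months, 10.46, 13.02 and 11.49 FPKM at 4 years and 9.08, 30.91 and 21.21 FPKM in cattle–yak. *MMP28* (epilysin), an MMP known from testis and skin, read 1.56, 1.27 and 0.79 FPKM at 6 months and 0.97, 4.35 and 3.40 FPKM at 18 months. It read 8.42, 14.61 and 5.79 FPKM at 4 years and 17.46, 12.55 and 12.72 FPKM in cattle–yak. For both genes the adult groups overlapped and lay above all libraries of 6 months.

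*MMP24*, a transmembrane MMP known mostly from the nervous system, read 0.06, 0.03 and 0.00 FPKM at 6 months, from 5 counts in all. It read 0.04, 2.40 and 0.02 FPKM at 18 months, 4.53, 3.62 and 6.50 FPKM at 4 years and 7.67, 3.90 and 7.40 FPKM in cattle–yak. Its level was thus present in the hybrids as in yak of their age, and at 18 months it was seen above 0.04 FPKM in replicate 2 alone. In Bosgru_T2T1.0 *MMP24* overlaps *MMP24OS*, a gene not analysed here.

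*MMP13* (collagenase 3), which cuts fibrillar collagens and aggrecan, was high in yak of 4 years and near 0 in cattle–yak. It read 20.61, 22.51 and 17.78 FPKM in yak of 4 years and 0.04, 0.05 and 0.00 FPKM in cattle–yak, from 530, 581 and 419 counts against 3, 3 and 0. No count was found in any library of 6 months, and at 18 months the counts were 0, 295 and 3, or 0.00, 9.58 and 0.08 FPKM. Yak of 4 years and replicate 2 of 18 months, the libraries rich in spermatid markers, were thus high, and the other 8 libraries were at or near 0. By summed counts over summed library sizes the level was 636 times lower in cattle–yak than in yak of 4 years (95% interval 292 to 1740, exact, counting error only). *MMP13* was the second MMP by mean FPKM in yak of 4 years, with 11.4% to 13.8% of the MMP sum.

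**Figure D2:**
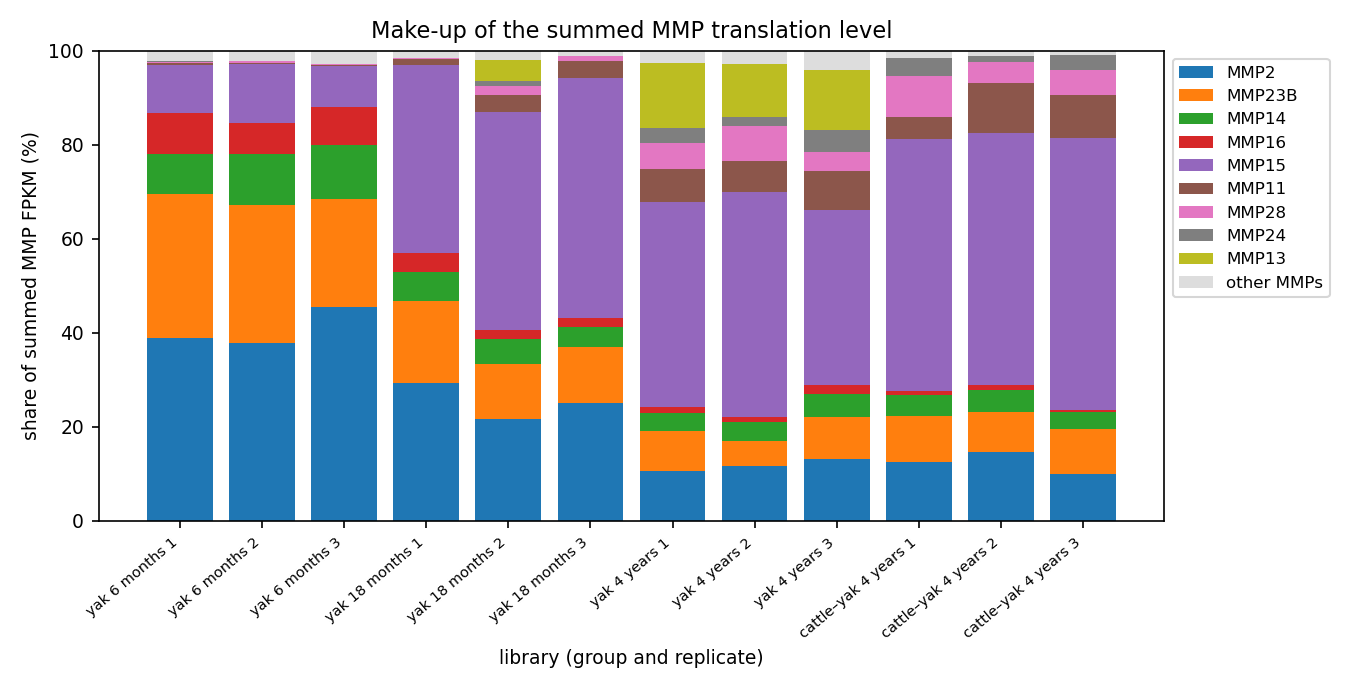
Share (%) of each MMP in the summed MMP FPKM of each of the 12 libraries, with 9 MMPs coloured and the rest, *MMP19* among them, in grey. *MMP2* leads at 6 months with 37.9% to 45.4%, *MMP15* leads in the other libraries, and *MMP13* holds 11.4% to 13.8% in yak of 4 years and at most 0.0201% in cattle–yak.

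The remaining MMPs were low. *MMP1*, *MMP3*, *MMP7*, *MMP8*, *MMP9*, *MMP20*, *MMP25* and *MMP27* had a mean under 1 FPKM in every group. The macrophage elastase *MMP12*, which neighbours *MMP13* in Bosgru_T2T1.0, also did, and its 31 counts at 4 years all came from replicate 3. *MMP27*, found in the same gene cluster, had 6, 11 and 7 counts in yak of 4 years and 0 in the hybrids, which puts the hybrids at least 20-fold lower when 3 counts over the group are taken as the limit. The hybrid libraries were the deepest, with 38437889 counts or more.

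Among the ADAMTS proteases *ADAMTS7*, which cleaves COMP, a protein of cartilage and tendon matrix, was the highest in every group. It read 145.35, 108.13 and 71.58 FPKM at 6 months, 92.26, 51.05 and 39.98 FPKM at 18 months, 30.82, 57.84 and 24.43 FPKM at 4 years and 24.42, 36.09 and 37.95 FPKM in cattle–yak, and it made up 45.3% to 75.1% of the ADAMTS sum. *ADAMTS17*, linked to fibrillin microfibrils, read 31.00 to 43.46 FPKM at 6 months, 4.39 to 16.35 FPKM at 18 months, 3.14 to 3.76 FPKM at 4 years and 2.72 to 3.58 FPKM in cattle–yak. *ADAMTS13*, the protease of von Willebrand factor, read 5.57 to 11.62 FPKM at 6 months and 0.09 to 1.11 FPKM in the adults. For all 3 genes the adult groups overlapped and the libraries of 6 months were above them.

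*ADAMTS1*, a secreted protease of versican and other proteoglycans, had another pattern. It read 12.77, 12.57 and 11.28 FPKM at 6 months, 14.04, 11.64 and 16.34 FPKM at 18 months, 0.90, 1.98 and 1.61 FPKM at 4 years and 6.70, 21.09 and 11.98 FPKM in cattle–yak. The hybrids spanned the range of the younger yak, and yak of 4 years alone were low. *ADAMTS15*, a proteoglycan protease as well, read 1.78, 1.14 and 0.58 FPKM at 6 months, 0.43, 0.51 and 1.33 FPKM at 18 months, 0.18, 0.28 and 0.37 FPKM at 4 years and 2.56, 3.17 and 2.39 FPKM in cattle–yak, where every library was above all yak. *ADAMTS9*, which also cleaves versican, read 4.58 to 7.29 FPKM at 6 months, 4.14 to 5.47 FPKM at 18 months, 3.15 to 4.02 FPKM at 4 years and 5.46 to 8.57 FPKM in cattle–yak.

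Of the ADAMTSL proteins, which regulate matrix assembly, *ADAMTSL3* followed the libraries rich in spermatid markers. It read 0.98, 0.92 and 0.78 FPKM at 6 months, 0.64, 6.4 and 0.90 FPKM at 18 months, 10.38, 9.24 and 11.08 FPKM at 4 years and 1.18, 0.89 and 0.87 FPKM in cattle–yak. *ADAMTSL3* overlaps *SH3GL3* in Bosgru_T2T1.0, and that gene ran otherwise, with 35.59 to 68.22 FPKM at 6 months and 17.65 to 21.13 FPKM at 4 years. *ADAMTSL1* read 1.95 to 2.32 FPKM at 6 months, 0.95 to 2.32 FPKM at 18 months, 3.05 to 8.46 FPKM at 4 years and 10.46 to 13.16 FPKM in cattle–yak. *ADAMTSL2*, a binder of fibrillin and of latent TGF-beta complexes, read 4.94, 2.67 and 1.90 FPKM at 6 months, 3.84, 1.44 and 2.97 FPKM at 18 months, 0.29, 0.31 and 0.40 FPKM at 4 years and 2.06, 1.98 and 2.15 FPKM in cattle–yak. Yak of 4 years were thus alone in the low range for *ADAMTSL2* and alone in the high range for *ADAMTSL3*, where only replicate 2 of 18 months came near.

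Over all 46 genes the highest group mean fell in yak of 6 months for 21, in yak of 4 years for 16, in cattle–yak for 7 and in yak of 18 months for 2. A group mean of at least 5 FPKM was reached by 20 genes in some group, and 13 stayed under 1 FPKM in all 4.

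**Figure D3:**
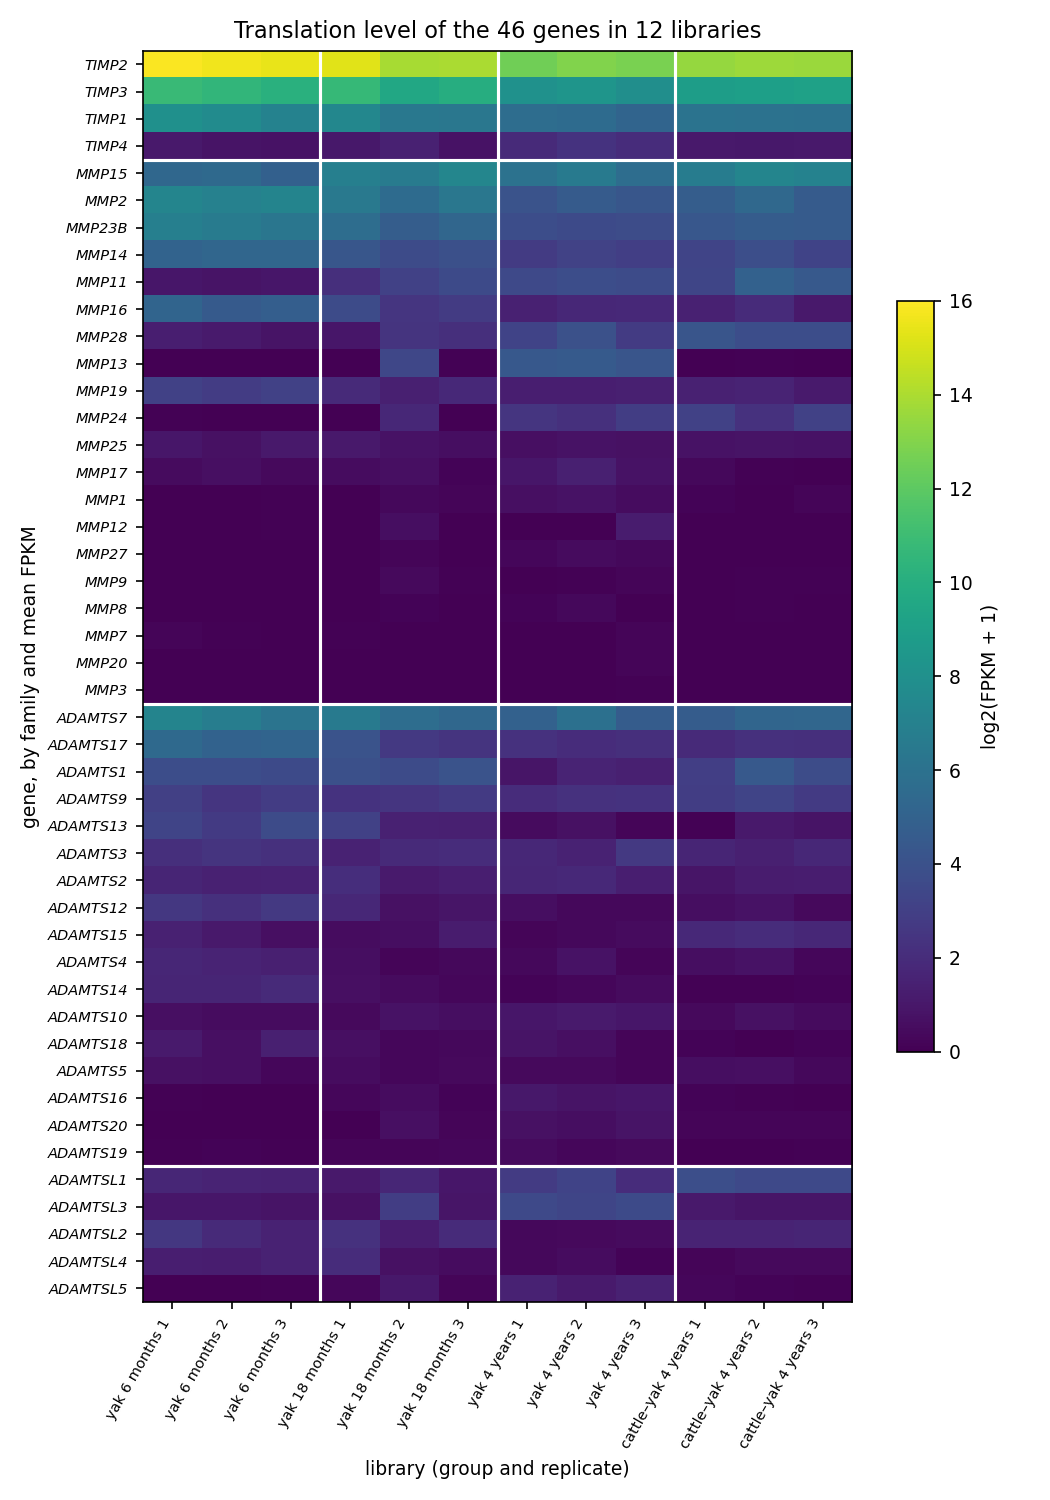
Translation level, as log2(FPKM + 1) in colour from 0 to 16, of the 46 genes (rows, by family and mean level) in the 12 libraries (columns). *TIMP2* and *TIMP3* are brightest in all libraries, *MMP13* and *ADAMTSL3* stand out in yak of 4 years and in replicate 2 of yak of 18 months, and 13 genes stay under a group mean of 1 FPKM.

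Cattle–yak were then compared with yak of the same age to ask which proteases and inhibitors differ in translation level in the testis of the sterile hybrid. *ADAMTS15*, *ADAMTS1* and *ADAMTSL2* were several-fold higher in cattle–yak, and *MMP13*, *ADAMTSL3*, *TIMP4* and 9 others were lower. *TIMP1*, *TIMP2* and *TIMP3* were under the fold threshold. Differentially translated genes (DTGs) had an adjusted p under 0.05 and differed by 1 or more on the log2 scale, by edgeR's quasi-likelihood test on counts of the 6 libraries with adjustment over all genes tested. Of the 46 genes 39 passed the filter on low counts. DTGs were 3 higher and 12 lower in cattle–yak, where 17.1% of all 16498 genes tested were higher and 27.0% lower. The other 24 were no DTGs. Without yak of 4 years replicate 2 the counts were 7 higher and 9 lower, beside 3121 and 4267 of the 17041 genes tested in that fit. Without replicate 1 of that group or of cattle–yak 5 genes were higher, beside 18.2% and 16.9%. FPKM did not overlap between the groups for 13 genes that were higher and 13 that were lower, beside 34.3% and 36.8% of all genes tested. The median log2 fold change was 0.20 over the 39 genes and -0.00 over all genes.

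The 3 DTGs that were higher were *ADAMTS15*, *ADAMTS1* and *ADAMTSL2*. *ADAMTS15* differed by a log2 fold change of 3.32 ± 0.32 (SE, adjusted p = 3.86e-05), or 10.02 times. *ADAMTS1* differed by 3.16 ± 0.45 (adjusted p = 0.000368), or 8.92 times. *ADAMTSL2* differed by 2.63 ± 0.26 (adjusted p = 5.1e-05), or 6.21 times. All 3 remained DTGs whichever library was left out.

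TIMP inhibitors differed by less. *TIMP2* was higher by a log2 fold change of 0.85 ± 0.16 (adjusted p = 0.00153), or 1.80 times, and *TIMP3* by 0.92 ± 0.14 (adjusted p = 0.000467), or 1.89 times. *TIMP1* was higher by 0.50 ± 0.19 (adjusted p = 0.045). All 3 passed the adjusted p but not the fold threshold and were no DTGs. *TIMP4* was a DTG and lower, at -1.56 ± 0.33 (adjusted p = 0.00335), also whichever library was left out. *TIMP2* passed the fold threshold without yak of 4 years replicate 2 (1.04), and *TIMP3* without replicate 1 (1.004) or replicate 2 (1.08) of that group.

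No MMP was higher as a DTG. *MMP15* at 0.91 ± 0.23 (adjusted p = 0.00736) and *MMP23B* at 0.90 ± 0.15 (adjusted p = 0.000956) passed the adjusted p alone, as did *MMP2* at 0.68 ± 0.24 and *MMP14* at 0.59 ± 0.21. *MMP11* at 0.80 ± 0.37 (adjusted p = 0.0888), *MMP28* at 0.55 ± 0.32 and *MMP24* at 0.39 ± 0.32 did not pass, nor did *MMP16* at -0.25 ± 0.38 and *MMP19* at 0.01 ± 0.30. Leaving out yak of 4 years replicate 2 made DTGs of *MMP15* (1.23) and *MMP28* (1.04). *MMP15* (1.03) and *MMP11* (1.15) became DTGs without cattle–yak replicate 1, and *MMP23B* (1.04) without yak of 4 years replicate 1.

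Lower as DTGs were 3 MMPs. *MMP13* fell by 9.18 ± 0.41 on the log2 scale (adjusted p = 1.05e-06). *MMP17*, which is held in the membrane by a lipid anchor, read 0.93, 1.67 and 0.75 FPKM in yak of 4 years and 0.27, 0.09 and 0.01 FPKM in cattle–yak (-3.05 ± 0.80, adjusted p = 0.00937). *MMP1*, the interstitial collagenase, had 14, 19 and 10 counts against 8, 0 and 9 (-2.62 ± 0.83, adjusted p = 0.022). The *MMP1* call was lost without yak of 4 years replicate 1 (adjusted p = 0.067) or replicate 2 (adjusted p = 0.0854). It was also lost with all 12 libraries in 1 edgeR fit (adjusted p = 0.0797) and with replicate number as a block (adjusted p = 0.0521). With limma on log2(FPKM + 1) *MMP1* fell under the fold threshold (-0.53). *MMP3*, *MMP7*, *MMP8*, *MMP9*, *MMP12*, *MMP20* and *MMP27* had too few counts for the test.

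**Figure D4:**
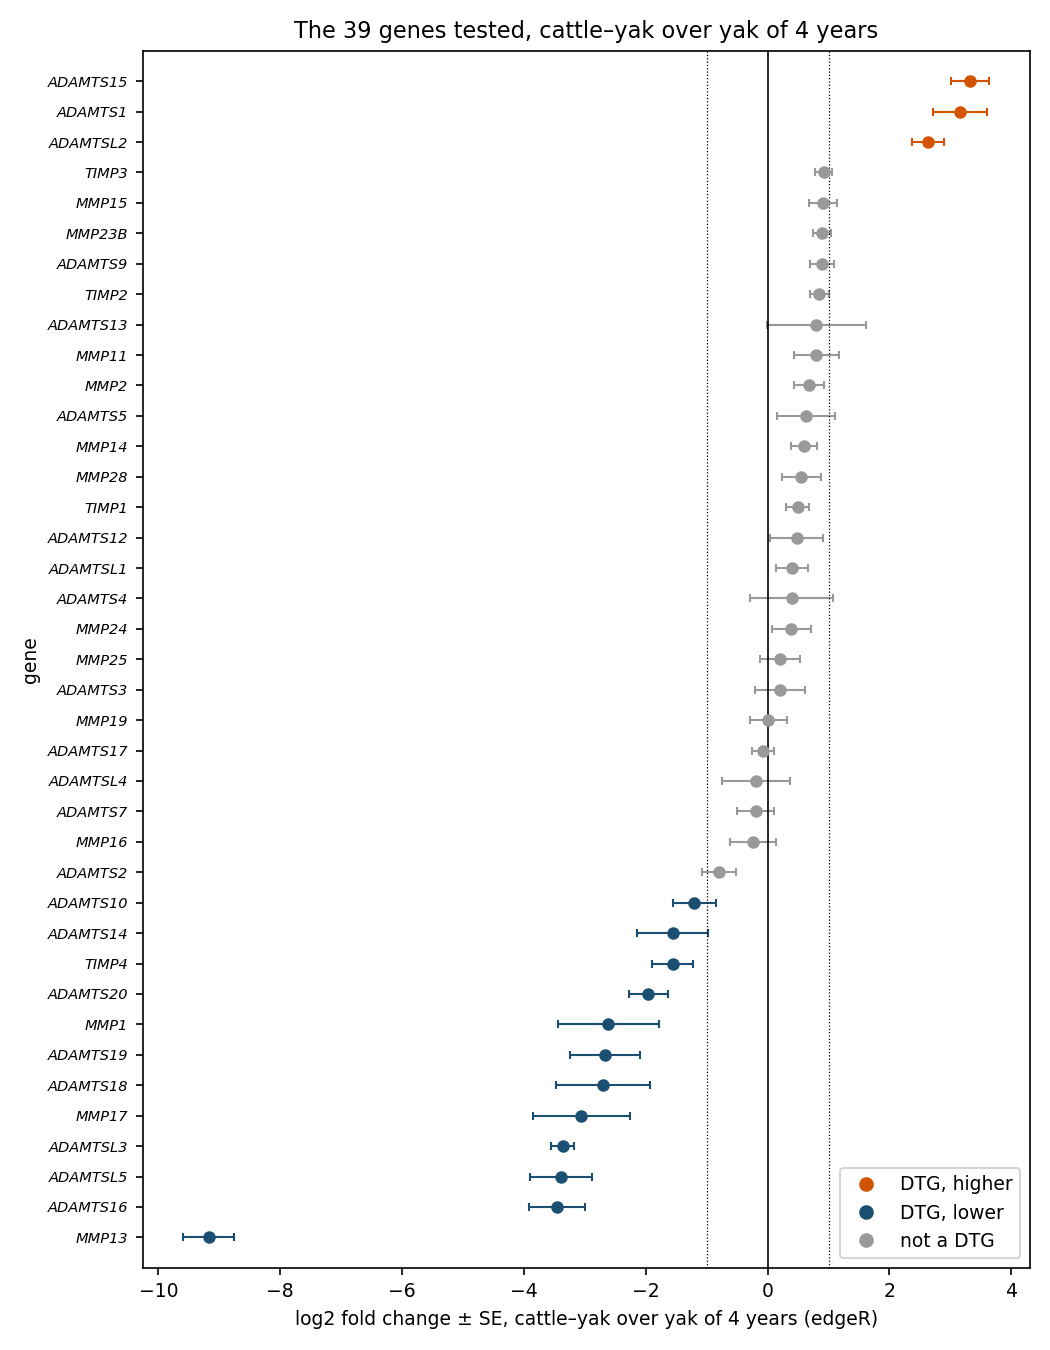
Log2 fold change with its standard error (edgeR) of the 39 genes tested, cattle–yak over yak of 4 years, in order, with dotted lines at the fold threshold. The 3 DTGs that are higher lie between 2.63 and 3.32, the 12 that are lower lie between -9.18 and -1.202, and *TIMP2* and *TIMP3* lie just under the threshold at 0.85 and 0.92.

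The ADAMTS proteases that fell were all of low level, with group means of at most 1.05 FPKM in yak of 4 years. *ADAMTS16* read 1.07, 0.80 and 0.98 FPKM in yak of 4 years and 0.13, 0.08 and 0.04 FPKM in cattle–yak (log2 fold change -3.45 ± 0.46, adjusted p = 0.000271). *ADAMTS19* (-2.67 ± 0.58), *ADAMTS18* (-2.70 ± 0.77) and *ADAMTS20* (-1.96 ± 0.32), of which the last is a versican protease, were lower as well. *ADAMTS18* lost the call without yak of 4 years replicate 1 (adjusted p = 0.0733), and *ADAMTS20* with all 12 libraries in 1 edgeR fit (adjusted p = 0.0503). *ADAMTS10*, a partner of fibrillin, was lower by -1.202 ± 0.35 and lost the call without yak of 4 years replicate 2 (adjusted p = 0.0744) or cattle–yak replicate 3 (adjusted p = 0.0525). *ADAMTS14*, a procollagen-processing protease, rested on 44 counts against 37 at unequal depth. It lost its call without yak of 4 years replicate 2 or 3 or cattle–yak replicate 1 or 2 (largest adjusted p 0.218). The call was also lost with DESeq2 (adjusted p = 0.062), with no filter on low counts (adjusted p = 0.0664) and with replicate number as a block (adjusted p = 0.0639).

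The 2 ADAMTSL proteins that fell did so whichever library was left out. *ADAMTSL3* differed by -3.36 ± 0.19 (adjusted p = 2.6e-06), and *ADAMTSL5* read 1.94, 1.22 and 1.73 FPKM against 0.24, 0.12 and 0.08 FPKM (-3.39 ± 0.51, adjusted p = 0.000513). Other named genes were no DTGs. *ADAMTS9* was higher by 0.89 ± 0.19 (adjusted p = 0.00374) and passed the fold threshold without yak of 4 years replicate 3 (1.01) or cattle–yak replicate 3 (1.04). *ADAMTS7* (-0.20 ± 0.31), *ADAMTS17* (-0.08 ± 0.18), *ADAMTS13* (0.80 ± 0.81) and *ADAMTSL1* (0.41 ± 0.26) did not pass the adjusted p. For *ADAMTSL1* FPKM and counts differed. Its FPKM did not overlap between the groups, with means of 5.75 in yak of 4 years and 11.46 in cattle–yak, while counts gave 1.32 times. The source of this gap was not tested.

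Marker genes of several cell types moved along with this comparison. Their counts stand beside 17.1% of all genes tested that were higher DTGs and 27.0% that were lower. Of 12 spermatid markers listed only 6 were found. All 6 were lower DTGs in cattle–yak, and *TNP1* and *ODF1* were at 0 in hybrid replicate 3. Of 6 peritubular myoid markers 6 were higher DTGs (221.6 to 231.1 FPKM summed at 4 years, 812.6 to 1324 in cattle–yak). Of 8 Leydig cell markers listed only 3 were found, and all 3 were higher DTGs (86.27 to 218.2 against 672.1 to 1134). Of 5 fibroblast markers 4 were higher DTGs (111.1 to 141.9 against 323.6 to 530.2). Of these 5, *COL3A1*, *DCN* and *LUM* are counted again among the matrix substrates below. Sertoli cell markers, of which 4 of 8 were higher DTGs, summed to 643.1 to 910.7 against 1194 to 1453 FPKM. None of the markers of these 4 lists was at 0 throughout a group. In the other lists 3 of 6 spermatogonial and 2 of 7 endothelial markers tested were higher DTGs, and none was lower. Lower were 3 of 8 spermatocyte and 2 of 3 neutrophil markers, and none was higher. Of 7 macrophage markers 1 was higher and 2 were lower. The part of the make-up of the tissue in the values of the proteases and inhibitors was not tested.

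Partner genes of the pathway were taken from lists that hold 64 genes, of which 51 were tested in this comparison. Of the 51, 19 were higher DTGs and 7 lower, beside 17.1% and 27.0% of all genes tested. Of 21 matrix substrates tested 12 were higher DTGs in cattle–yak, led by the collagen *COL3A1* (2.52 ± 0.19) and elastin, *ELN* (2.42 ± 0.15), and 3 were lower, with *COMP* (-5.59 ± 0.30), a substrate of *ADAMTS7*, and *ACAN* (-3.29 ± 0.24), which encodes aggrecan, the lowest. The median over the 21 substrates was 1.34, beside 0.20 over the proteases and inhibitors. Against the younger yak of 6 months, 1 of 21 was higher and 15 were lower in cattle–yak, beside 18.1% and 19.7% of all genes. In yak of 4 years over 6 months 3 were higher and 15 lower, beside 31.0% and 24.7%. *COMP* read 1.28, 1.04 and 1.4 FPKM at 6 months and 1.16, 20.2 and 1.79 FPKM at 18 months. It read 32.85, 43.97 and 31.95 FPKM in yak of 4 years and 0.78, 1.0 and 0.47 FPKM in cattle–yak. *ACAN* read 0.08 to 0.26 FPKM at 6 months and 0.42, 1.91 and 0.63 FPKM at 18 months. It read 2.91 to 4.67 FPKM in yak of 4 years and 0.32 to 0.43 FPKM in cattle–yak. Both genes were thus highest in yak of 4 years, and at 18 months in replicate 2.

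Of 8 genes of the plasmin system and precursor activation, *PLAT*, which encodes tissue plasminogen activator, was higher with 26.31, 36.33 and 15.31 FPKM in yak of 4 years and 120.58, 134.11 and 151.03 FPKM in cattle–yak (2.39 ± 0.28), and so was the convertase *PCSK7* (1.04 ± 0.20). *PLG*, the precursor of plasmin (-5.71 ± 0.74), and *PLAU*, the urokinase activator (-1.68 ± 0.52), were lower at 2.86 FPKM or less. Of 11 other inhibitors and surface partners 2 were higher, the clearance receptor *LRP2* (2.73 ± 0.41) and the proteoglycan *SDC4* (1.72 ± 0.16), and none was lower. Of 8 ADAM sheddases *ADAM8* (2.53 ± 0.51) and *ADAM12* (1.87 ± 0.30) were higher and *ADAM19* (-1.26 ± 0.27) was lower. Of 3 astacin proteases tested 1 was higher and 1 lower. These counts, too, stand beside 17.1% of all genes tested higher and 27.0% lower.

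The growth of the yak testis from 6 months to 4 years was compared in steps. Neither step gave a DTG among these genes by edgeR on the 6 libraries of that step. Of 34 genes tested between 18 and 6 months, 17 had an unadjusted p under 0.05, and that fit called 0.0202% of all genes tested higher and 0.0471% lower. DESeq2 called 2 of the 34 higher and 12 lower, beside 7.13% and 5.43% of all genes. With all 12 libraries in 1 edgeR fit 6 of 39 tested were higher and 10 lower, beside 10.8% and 4.9%. With a replicate block 11 of the 34 were lower, beside 2.04%. FPKM did not overlap for 4 genes that were higher and 12 that were lower, beside 29.7% and 8.05% of all genes. Of 39 tested between 4 years and 18 months, 21 had an unadjusted p under 0.05, and edgeR on the 6 libraries called 0.0% of all genes higher and 0.0371% lower. DESeq2 called 6 of the 39 higher and 14 lower, beside 12.9% and 14.2%, and edgeR on all 12 libraries called 5 higher and 15 lower, beside 6.63% and 14.0%. Here FPKM did not overlap for 11 higher and 16 lower genes, beside 31.0% and 23.4%. Without replicate 1 of 18 months 3 genes were higher and 16 lower than at 6 months, beside 8.7% and 8.08% of all genes tested in that fit, among the lower *ADAMTS4* (-3.65), *ADAMTS14* (-3.38), *ADAMTS17* (-3.36), *TIMP2* (-2.22), *MMP14* (-1.96) and *MMP2* (-1.63). Without replicate 2 of 18 months 10 genes were higher and 15 lower at 4 years, beside 26.1% and 18.5%. They ran from *MMP13* (8.56) and *MMP24* (6.90) to *ADAMTS13* (-3.96). In each step, no other set with a library left out called any of these genes.

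For some genes the libraries of 18 months differed among themselves as the other ages did. This did not hold for *MMP15*, where every library of 18 months, at 100.55 to 163.80 FPKM, was above all yak of 6 months and 4 years. Replicate 1 was the nearest to yak of 6 months for *TIMP2*, *ADAMTS17* (16.35 against 5.39 and 4.39 FPKM) and *ADAMTS13* (7.70 against 1.76 and 1.68 FPKM). Replicate 2 alone read *MMP13*, *MMP24* and *ADAMTSL3* above the other two. Replicate 3, with 36.01 FPKM of spermatid markers, was with replicate 2 for *TIMP2* and with replicate 1 for *MMP13*. Among the 4 higher and 12 lower genes whose FPKM did not overlap with 6 months were *MMP15* (log2 fold change 1.42 ± 0.29, adjusted p = 0.0633) and *ADAMTS14* (-2.87 ± 0.44, adjusted p = 0.0533).

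Yak of 4 years were therefore also set directly against yak of 6 months, a comparison added after the data were seen. Of 39 genes tested 11 were higher and 22 lower at 4 years, beside 31.0% and 24.7% of the 16133 genes tested. FPKM did not overlap for 15 higher and 19 lower genes, beside 53.1% and 23.3%. The median log2 fold change was -1.75 over the 39 genes and 0.08 over all genes. *TIMP2* (-3.51 ± 0.36, adjusted p = 2.7e-05), *TIMP3* (-3.02 ± 0.27) and *TIMP1* (-2.71 ± 0.32) fell, as did *MMP2* (-3.50 ± 0.20), *MMP14* (-2.97 ± 0.15), *MMP16* (-4.17 ± 0.27), *MMP19* (-2.72 ± 0.23) and *MMP23B* (-3.63 ± 0.24). Of 17 ADAMTS proteases 12 fell, the most *ADAMTS13* (-5.10 ± 0.45) and *ADAMTS12* (-4.22 ± 0.33). *ADAMTS5*, the aggrecanase next to *ADAMTS1* in Bosgru_T2T1.0, was called at an adjusted p of 0.0486 and kept the call only without yak of 6 months replicate 3 (largest adjusted p otherwise 0.152).

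Genes that were higher at 4 years than at 6 months were *MMP13*, *MMP24*, *MMP11* (3.11 ± 0.23), *MMP28* (2.36 ± 0.42), *MMP1*, *ADAMTS16*, *ADAMTS20*, *ADAMTSL1*, *ADAMTSL3* (2.95 ± 0.19), *ADAMTSL5* (4.66 ± 0.63) and *TIMP4* (1.34 ± 0.43). By summed counts over summed library sizes, *MMP13* was at least 920-fold higher, with 3 counts over the group of 6 months as the limit. *MMP24* was 175 times higher by the same measure (95% interval 74.6 to 542, counting error only). By edgeR, with its own scaling, *MMP24* was 109.4 times higher. *TIMP4* lost the call in 3 of 6 sets with a library left out, namely 6 months replicate 2 or 3 or 4 years replicate 2 (largest adjusted p 0.0825). *ADAMTS18*, lower at 4 years, lost it without 6 months replicate 1 or 3 or 4 years replicate 2 (largest adjusted p 0.0647), and *ADAMTSL1* fell under the fold threshold without 6 months replicate 3 (0.96) or 4 years replicate 2 (0.79). *MMP15* did not pass (0.34 ± 0.25, adjusted p = 0.244).

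Cattle–yak were set against yak of 6 months as well, a testis before late germ cells, where the same hybrid libraries entered as in the comparison at 4 years and the same yak libraries as in the comparison of ages. Since the hybrids were 4 years old, age and the hybrid state cannot be told apart in this comparison. Of 35 genes tested 6 were higher and 20 lower in cattle–yak, beside 18.1% and 19.7% of the 15571 genes tested. Higher were *MMP24* (7.23 ± 0.63, or 149.7 times), *MMP11* (3.95 ± 0.45), *MMP28* (2.94 ± 0.31), *ADAMTS20* (2.27 ± 0.52), *ADAMTSL1* (1.49 ± 0.16) and *MMP15* (1.28 ± 0.22). By summed counts over summed library sizes *MMP24* was 234 times higher (95% interval 100 to 722, counting error only). Lowest were *ADAMTS14* (-5.39 ± 0.36), *ADAMTS18* (-4.44 ± 0.69) and *MMP16* (-4.39 ± 0.39), and *TIMP2* (-2.64 ± 0.28), *TIMP3* (-2.08 ± 0.24) and *TIMP1* (-2.19 ± 0.28) fell too. *ADAMTS1* (-0.43 ± 0.36), *ADAMTSL3* (-0.40 ± 0.25) and *TIMP4* (-0.21 ± 0.46) did not pass, and *TIMP4* turned to 0.35 when counts were scaled by library size alone. *MMP17* and *ADAMTSL2* were called lower but were not stable. *MMP17* kept its call only without cattle–yak replicate 1 (largest adjusted p otherwise 0.131), and *ADAMTSL2* only without yak of 6 months replicate 2 or 3 (largest adjusted p otherwise 0.0677).

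Set side by side, the genes fall into kinds by their values. *TIMP2* was -3.51 in yak of 4 years and -2.64 in cattle–yak, both over yak of 6 months, and *MMP2* was -3.50 and -2.80. *MMP24* was 6.77 and 7.23, *MMP11* 3.11 and 3.95, and *MMP28* 2.36 and 2.94. By contrast *ADAMTSL3* was 2.95 and -0.40, *ADAMTS16* 3.58 and 0.13, *ADAMTS1* -3.61 and -0.43, and *ADAMTS15* -2.70 and 0.64. Since both columns share the libraries of 6 months, the likeness of the values is given as a description. Scaling by library size alone moved the median log2 fold change of all genes to 0.64 for yak of 4 years and 0.52 for cattle–yak and the counts of these genes to 14 higher and 19 lower, beside 6596 and 2493 of all 16133 genes, and to 7 higher and 16 lower, beside 4867 and 1875 of all 15571. Of all calls, the lower share went from 44.3% to 27.4% and from 52.1% to 27.8%.

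**Figure D5:**
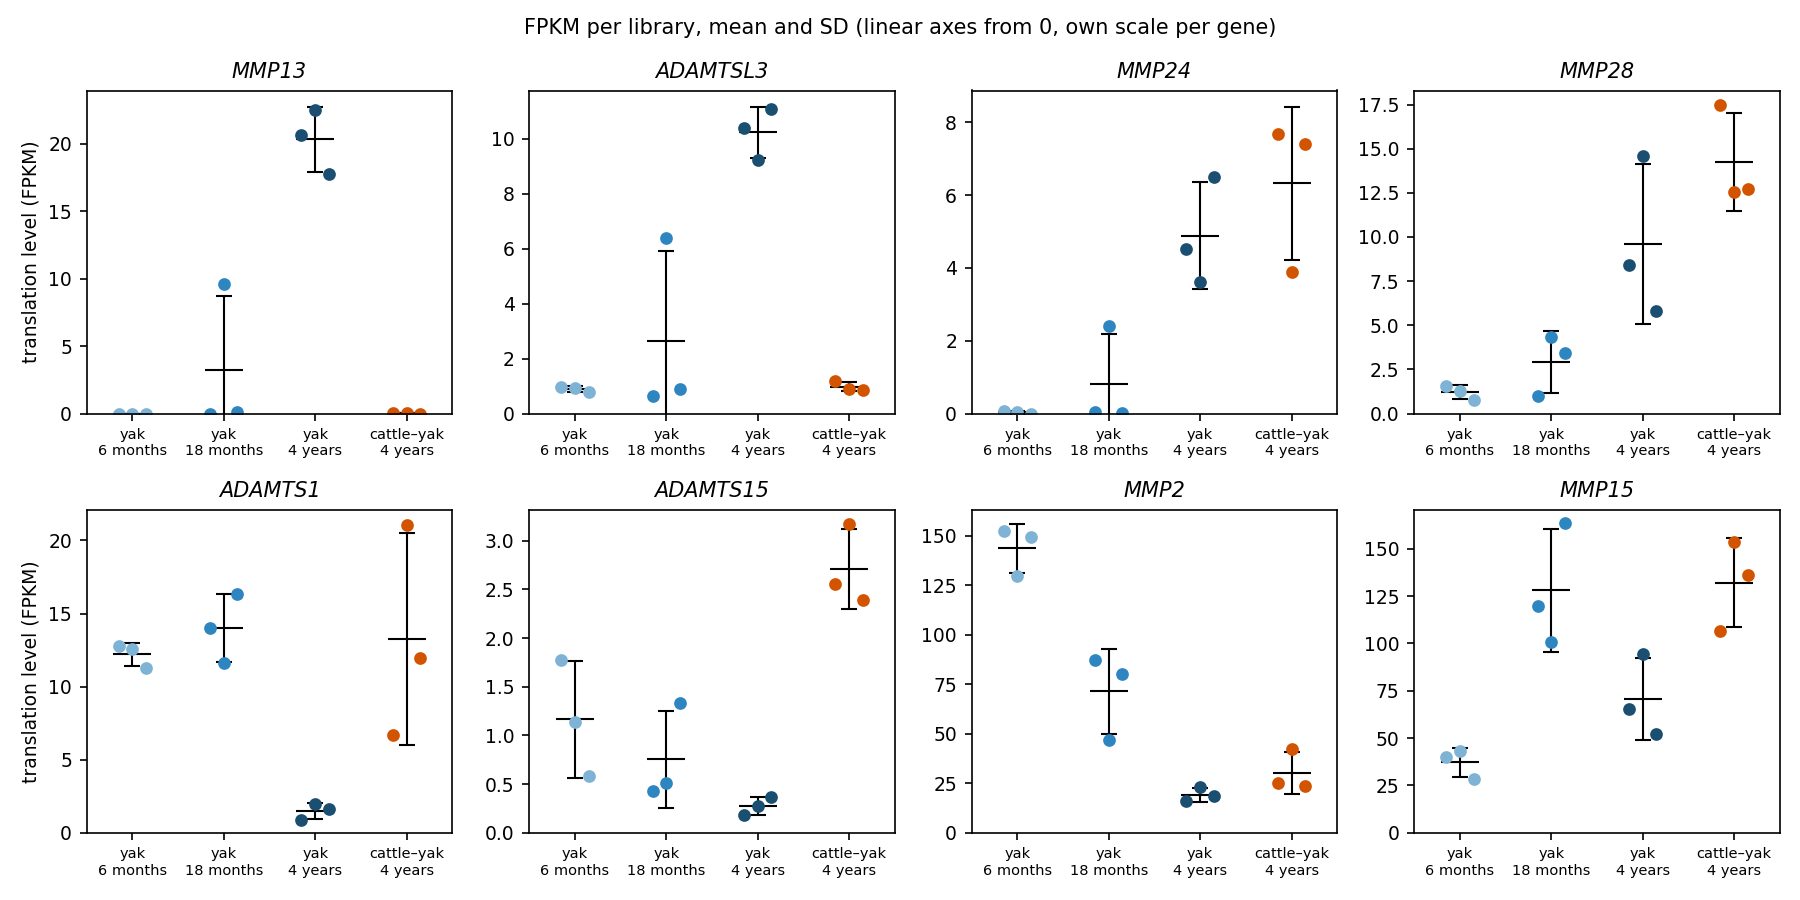
Translation level (FPKM, linear axes from 0, own scale per gene) of 8 genes in each library, with 3 points per group and bars for mean and SD, drawn down to 0 where the SD exceeds the mean. *MMP13* and *ADAMTSL3* are high in yak of 4 years and low in cattle–yak, *MMP24* and *MMP28* are high in both, and *ADAMTS1* is low in yak of 4 years alone.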

How the data were processed

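Ribo-seq libraries of testis from 12 animals were analysed from the deposited tables. Per the methods, the authors trimmed reads, removed rRNA and other small RNA, aligned footprints to the yak genome (BosGru) with STAR and quantified genes with RSEM. The deposited expected counts hold whole numbers, and the deposited FPKM values divide counts by RSEM's effective length and by depth. The authors' own fold changes, p-values and FDR, and their group means, were not used. Shared columns of the 3 comparison tables were identical.

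Counts were tested with edgeR 4.0.16 (R 4.3.3; filterByExpr, TMM, quasi-likelihood test, Benjamini-Hochberg over all genes), on the 6 libraries of each comparison. The standard error is the log2 fold change over the root of F. DESeq2 1.42.0, limma 3.58.1 on log2(FPKM + 1), other scalings and filters, and each library left out served as alternatives. The script was tested on simulated data. With 3 animals per group, p-values reflect the spread between these animals, and counting intervals (95%) cover counting error only.

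Named with values were all TIMPs, genes of at least 5 FPKM in a group mean, DTGs of the hybrid comparison and the 3 highest and 3 lowest calls elsewhere. Others were named after their values were seen. Members and lists were chosen with earlier results of these data known. Symbols were taken from the tables, where 7303 genes have none, and 43 of 46 were found in RefSeq's Bosgru_T2T1.0, used for overlaps only.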

Additional observations from a re-analysis of the deposited data

How the results depend on the processing

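Between cattle–yak and yak of 4 years, the genes that were higher DTGs numbered 3 under every other test, scaling or filter and 3 to 7 with a library left out (5 without yak of 4 years replicate 1, 7 without its replicate 2, 5 without cattle–yak replicate 1). Those that were lower numbered 10 to 13 except with limma, and 9 to 12 with a library left out. Limma ran on log2(FPKM + 1), a scale that shrinks the change of genes near 0, and gave 4. Among all genes, 13.6% to 17.1% were higher under those tests, scalings and filters, and 16.4% to 18.3% with a library left out. The lower share was 23.3% to 27.5%, 21.7% with limma, and 24.2% to 27.2% with a library left out. Between 18 and 6 months, the higher genes numbered 2 with DESeq2, 2 with library size alone, 6 with all 12 libraries in 1 fit, 1 with limma and 0 to 3 with a library left out. The lower ones numbered 12, 1, 10 and 1 under the same settings and 0 to 16 with a library left out. Of all genes, 7.13%, 0.699%, 10.8% and 0.679% were higher under these settings, and 0.0% to 8.7% with a library left out. The lower share was 5.43%, 0.329%, 4.9% and 0.464%, and 0.0% to 8.08% with a library left out. Between 4 years and 18 months, the higher genes numbered 6 with DESeq2, 5 with all 12 libraries and 0 to 10 with a library left out. The lower ones numbered 14, 15, 1 with limma and 0 to 15 with a library left out. Of all genes, 12.9% were higher with DESeq2, 6.63% with all 12 libraries and 0.0% to 26.1% with a library left out. Lower were 14.2%, 14.0%, 0.427% with limma and 0.0% to 18.5% with a library left out. The cause of these differences between settings was not tested.

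Replicate numbers did not pair the libraries, since deviations of same-numbered libraries correlated at -0.145 to 0.0987. With the replicate block, 11 genes were lower at 18 than at 6 months, against 0 without it, beside 2.04% and 0.0471% of all genes. In cattle–yak over yak of 4 years 3 were higher and 10 lower with the block, beside 16.7% and 26.6%.

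Directions reversed for genes near 0. In cattle–yak over yak of 4 years, *ADAMTS17* ranged from -0.15 to 0.0937, *ADAMTS7* from -0.36 to 0.31 and *MMP16* from -0.67 to 0.0438 with a library left out. *MMP19* went to -0.0279 with DESeq2 and with RLE, -9.503e-05 with library size alone, -0.0155 with the replicate block and -0.18 without cattle–yak replicate 2. *TIMP4* at 18 over 6 months went from 0.06 to between -0.28 and 0.41 with a library left out. In cattle–yak over yak of 6 months it went from -0.21 to 0.35 with library size alone, 0.18 with limma and between -0.38 and 0.13 with a library left out. *MMP1*, *ADAMTS14* and *MMP17* rest on few counts, and the part of depth or of the spread between replicates in their lost calls was not tested.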
